A study of Mus musculus with 2 samples.

Results

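The clock output genes around Nr1d1 were compared between the hypothalamus of Crtc1 knockout mice and that of wild-type mice. They are 10 genes, Nr1d1, Nr1d2, Dbp, Tef, Hlf, Per1, Per2, Per3, Bhlhe40 and Bhlhe41, of 18193 genes that the array's annotation pairs with at least 1 probe set of their own. All 23 probe sets paired with 1 of these symbols alone were taken, whatever their values. Nr1d1 was selected on the measured values, since its signal was lower in the knockout pool, so its own difference is given as a description. The other members were chosen by their known place in the clock, with results of these arrays in view, and no result below is a test of them.

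The study hybridised 1 Affymetrix array per genotype. The knockout array held RNA of Crtc1 knockout mice and the other array RNA of wild-type mice, each pooled in equal amounts from 3 animals. Both groups were males of 12 weeks that had fasted for 18 h and had then eaten for 6 h. The strain, the construction of the Crtc1 allele and the hour at which tissue was taken were not given in these sources.

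The molecular clock of mammals is a loop of transcription. The proteins CLOCK and BMAL1 bind E-boxes and switch on the Per and Cry genes, whose products inhibit them, and E-boxes also drive Nr1d1, Nr1d2, Dbp, Tef, Bhlhe40 and Bhlhe41. DBP, TEF and HLF in turn activate genes through D-boxes, and the REV-ERB proteins encoded by Nr1d1 and Nr1d2 repress genes such as Arntl, which encodes BMAL1. Crtc1 encodes a coactivator of CREB, which binds cAMP response elements (CREs), and in the mouse suprachiasmatic nucleus, the central clock of the hypothalamus, CRTC1 is known to act with CREB in the induction of Per1 by light.

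Values are linear probe-set signals, and a difference is the log2 signal of the knockout array minus that of the wild-type array. Probe sets were called measured when their log2 signal, averaged over the 2 arrays, reached the median of all probe sets, equal to a signal of 52.3, and a gene took the value of its brightest measured probe set. With 1 array per genotype there was no test and no replicate check. The only error at hand was the array error, the SD of the differences given by several probe sets of the same gene, which ran on the log2 scale between 0.32 for the dimmest probe sets (log2 signal under 7) and 0.16 for the brightest (10 and above). It holds no spread between mice.

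The Crtc1 signal followed the labels, with 85.1 in knockout RNA and 631 in wild-type RNA by its brightest probe set and 31.5 against 209 by the next. The median signal was 54.4 on the knockout array and 52.2 on the wild-type array. Markers of the hypothalamus were present, since 9 of 14 were measured, and their signals summed to 9448 in knockout RNA and 9290 in wild-type RNA. These near-equal sums held shifts in both directions, with 5 genes lower and 4 higher. Differences of 5 of the 9 passed their array errors, against 25.2% of all measured genes. Ghrh, Crh, Sim1 and Nr5a1 were under the signal limit. The lists of other regions and cell types had summed signals in the knockout pool 0.89 to 1.58 times those in wild type. Choroid plexus markers were at the low end, with 7 of 7 lower, against 49.0% of all measured genes. Their sums were 8538 in knockout RNA and 9639 in wild-type RNA. Ttr made up most of both sums, with 7745 in knockout RNA and 8571 in wild-type RNA, and the median difference of the 7 was -0.37. Endothelial markers were at the high end, with 4 of 4 higher, against 50.9% of all measured genes, and sums of 1244 in knockout RNA and 786 in wild-type RNA. Plvap, a gene of fenestrated endothelium, carried most of that gap, and without it, a choice made after seeing the data, the other 3 summed to 817 in knockout RNA and 653 in wild-type RNA, 1.25 times.

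Nr1d1 was lower in the knockout pool and no other clock output gene differed as much. Of the 8 other measured members, 2 were lower (Per1 and Tef) and 6 higher in the knockout pool, and none of them differed at least 1.5-fold by its brightest probe set. Of all measured genes, 3.50% differed at least 1.5-fold in either direction, 49.0% were lower by any amount and 50.9% higher. The median over the 9 measured members was 0.04 and over the 8 without Nr1d1 0.05, against 0.00 over all 11312 measured genes. These counts sit close to zero difference and depend on the scaling: with median centring 6 of the 9 were lower and 3 higher, because Dbp, Per2 and Bhlhe40 turned to -0.05, -0.01 and -0.02. That centring shifts every gene by -0.06 and puts 61.1% of all measured genes on the lower side, which is the share to set beside each count of genes given with it here. By probe set, 10 of the 20 measured ones were lower and 10 higher, against 48.9% lower and 51.0% higher over all measured probe sets with 1 gene. With median centring 13 were lower and 7 higher. The counts over the 9 genes and over the 20 probe sets include Nr1d1, which was selected as lower. The other 3 probe sets were too dim to be measured and include both of Bhlhe41.

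**Figure D1:**
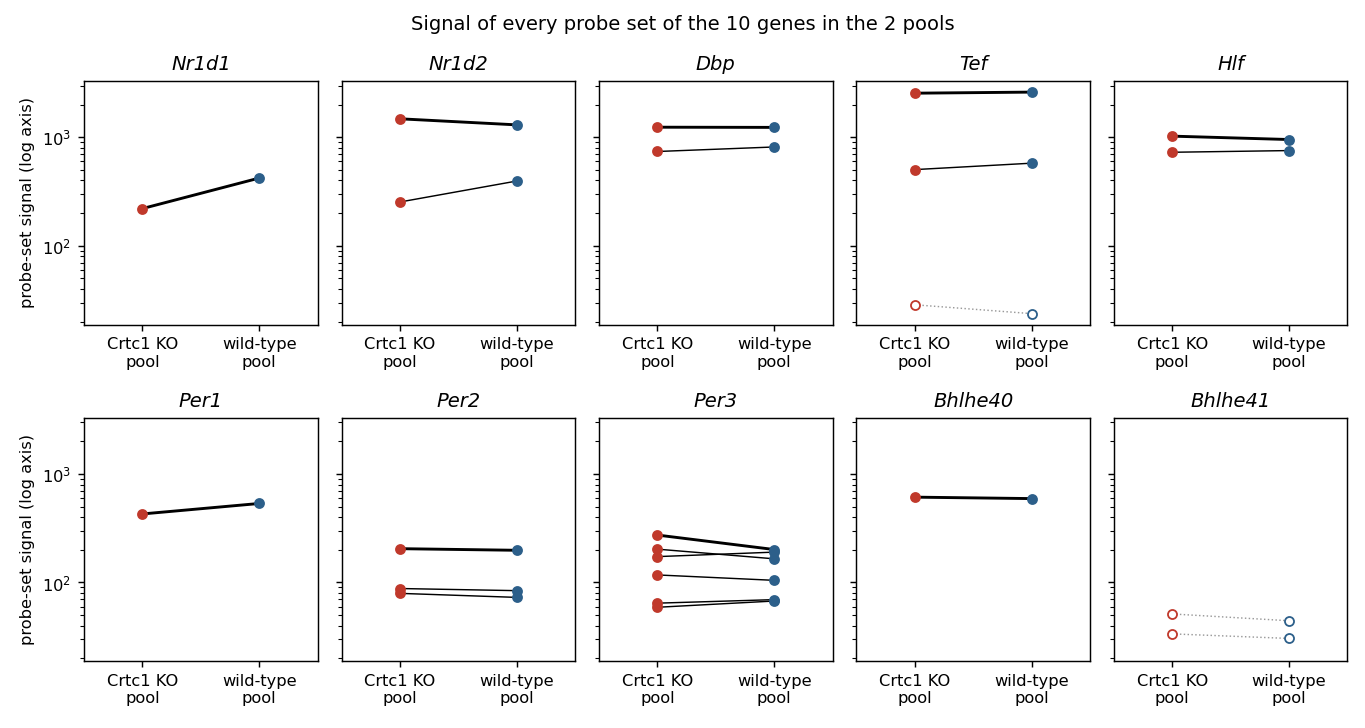
Signal of each probe set of the 10 genes in the Crtc1 knockout pool (left, red) and the wild-type pool (right, blue), on a log axis. Lines join the 2 readings of a probe set, thick for the brightest measured one, and open symbols with dotted lines are probe sets too dim to be measured; the line of Nr1d1 is the steepest among the measured probe sets, with 220 in knockout RNA and 421 in wild-type RNA.

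To show which elements lie next to these genes, 7 motifs were searched on both strands in the 250 bases before each annotated transcript start, with sequences from RefSeq (GRCm38.p6). They were the E-box CACGTG and its variant CACGTT, the D-box forms TTATGTAA and TTACGTAA, the half-site AGGTCA that REV-ERB and ROR proteins bind, the CRE TGACGTCA and its half-site TGACG, which lies within the full CRE. Of the 10 members 8 matched the promoter table, Tef and Per1 with 2 starts each. Among 32851 promoters in the table, 6.02% held CACGTG, 3.85% CACGTT, 0.819% TTATGTAA, 0.113% TTACGTAA, 14.0% AGGTCA, 1.55% TGACGTCA and 17.8% TGACG. A match is a description of letters and not of binding, and these genes also have known elements farther away, which this window leaves out.

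**Figure D2:**
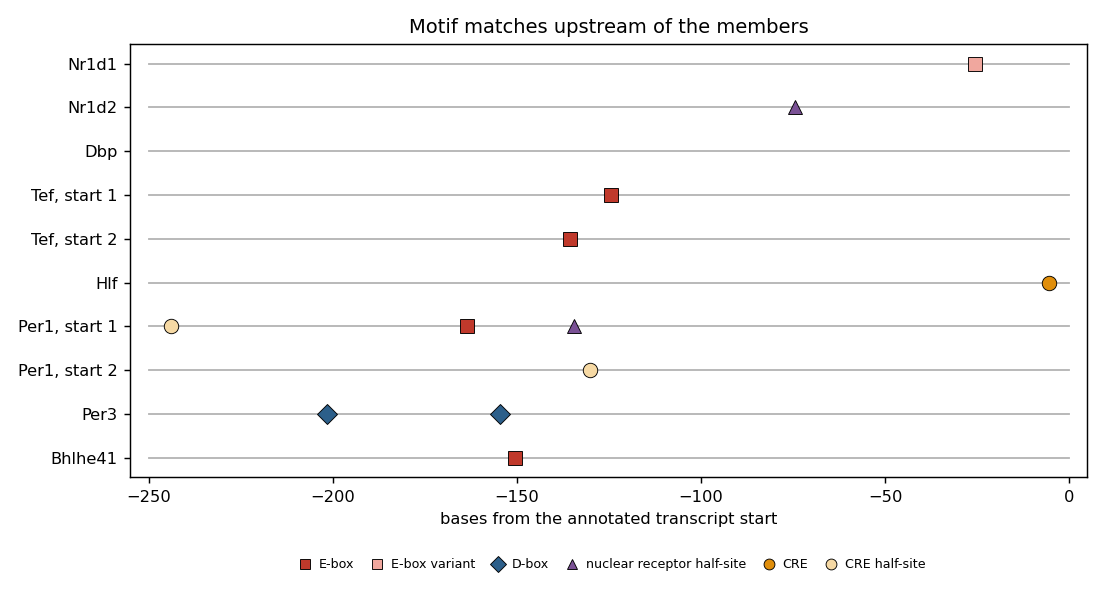
Matches of the motifs in the 250 bases before each annotated start of the 8 members in the promoter table, with the start at 0 on the horizontal axis in bases; the 2 half-sites inside the full CRE of Hlf are not drawn. CACGTG lies upstream of Tef, Per1 and Bhlhe41, TTATGTAA occurs 2 times upstream of Per3, and the window of Dbp has no match.

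The REV-ERB genes Nr1d1 and Nr1d2 encode haem-binding nuclear receptors that lack the usual activation function and recruit corepressors. Nr1d1 (chr11:98767932-98775377 in GRCm38.p6) had a signal of 220 in knockout RNA and 421 in wild-type RNA by its single probe set, 1426464_at. The difference of -0.93, or 1.91-fold lower, was 4.08 times the array error of 0.23, and Nr1d1 was the 24th lowest of the 11312 measured genes. Its 3′ end overlaps the gene model of Thra, which encodes a thyroid hormone receptor on the opposite strand, by 1075 bases. The 3 measured probe sets of Thra differed by -0.17, 0.14 and -0.46 on the log2 scale. They were looked up after the values of Nr1d1 were seen. Their array errors were 0.16, 0.23 and 0.23 in that order. The lower ones, at -0.17 and -0.46, passed theirs, the higher one did not, and none differed by as much as Nr1d1. Whether any of them reads the shared bases was not tested.

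Nr1d2 (chr14:18204056-18239106) gave opposite readings. Probe set 1416958_at read 1481 in knockout RNA and 1302 in wild-type RNA, a difference of 0.19 with an array error of 0.16. The dimmer 1416959_at read 253 in knockout RNA and 395 in wild-type RNA, 1.56-fold lower (-0.64, array error 0.23). The probe sets lay 0.83 apart on the log2 scale, a gap that was equalled or passed by 3.26% of the 3100 genes with 2 measured probe sets, and their mean was -0.23. Nr1d2 therefore had no settled direction. Its dimmer probe set was 1 of the 2 member probe sets past 1.5-fold, against 4.44% of all measured probe sets with 1 gene. The other was that of Nr1d1, which was selected on its value. The sequences before both starts are shown because the E-box variant of Nr1d1 (capitals, read on the opposite strand 28 to 23 bases before the start) and the AGGTCA half-site of Nr1d2 (77 to 72 bases before the start) were their only matches.
Nr1d1, chr11:98775378-98775627, minus strand: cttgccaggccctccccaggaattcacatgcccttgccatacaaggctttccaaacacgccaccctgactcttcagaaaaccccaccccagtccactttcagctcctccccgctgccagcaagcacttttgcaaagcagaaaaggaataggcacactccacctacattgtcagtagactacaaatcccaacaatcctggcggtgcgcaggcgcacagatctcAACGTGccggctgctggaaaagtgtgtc
Nr1d2, chr14:18239107-18239356, minus strand: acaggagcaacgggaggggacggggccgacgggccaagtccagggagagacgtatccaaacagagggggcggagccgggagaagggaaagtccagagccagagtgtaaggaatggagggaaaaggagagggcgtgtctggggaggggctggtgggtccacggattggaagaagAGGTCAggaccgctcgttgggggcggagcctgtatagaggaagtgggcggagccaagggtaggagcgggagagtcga

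The D-box activators Dbp, Tef and Hlf, which belong to the PAR bZIP family and are known to drive detoxification genes in the mouse liver, differed by less than their array errors in every measured probe set. Dbp (chr7:45705100-45710203) read 1239 in knockout RNA and 1234 in wild-type RNA by its brighter probe set, a difference of 0.01. Its other probe set read 740 in knockout RNA and 814 in wild-type RNA, a difference of -0.14. Dbp is among the clock genes with the widest daily swing in many tissues, and neither reading set the pools apart beyond its array error, 0.16 for the brighter and 0.21 for the other.

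Tef (chr15:81802673-81826863) read 2550 in knockout RNA and 2609 in wild-type RNA, a difference of -0.03. Its next probe set read 504 in knockout RNA and 577 in wild-type RNA, a difference of -0.20 with an array error of 0.21. Both measured probe sets were lower, by no more than 1.15-fold, and another, at 28.6 in knockout RNA and 23.7 in wild-type RNA, was too dim. Hlf (chr11:90336535-90390917) read 1025 in knockout RNA and 954 in wild-type RNA, a difference of 0.10, and 728 against 754 by its other probe set, a difference of -0.05. The upstream sequences show the canonical E-box of Tef (127 to 122 bases before its first start) and the full CRE of Hlf (9 to 2 bases before its start), the one full CRE found among the members. A canonical E-box also lay 138 to 133 bases before the other start of Tef.
Tef, chr15:81802423-81802672, plus strand: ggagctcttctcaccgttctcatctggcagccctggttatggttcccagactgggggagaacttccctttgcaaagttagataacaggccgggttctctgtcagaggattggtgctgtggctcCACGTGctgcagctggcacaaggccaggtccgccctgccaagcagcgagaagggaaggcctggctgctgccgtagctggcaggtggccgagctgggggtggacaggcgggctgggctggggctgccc
Hlf, chr11:90390918-90391167, minus strand: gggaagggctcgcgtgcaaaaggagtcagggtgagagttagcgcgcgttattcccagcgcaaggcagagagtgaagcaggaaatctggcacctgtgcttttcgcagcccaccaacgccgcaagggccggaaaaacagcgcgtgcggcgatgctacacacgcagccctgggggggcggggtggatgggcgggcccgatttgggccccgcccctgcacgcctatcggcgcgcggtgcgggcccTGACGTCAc

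The Period genes encode the inhibitors of CLOCK and BMAL1, and Per1 was lower, Per3 higher by its brightest probe set and Per2 near zero. Per1 (chr11:69095108-69109965), an early responder to light and cAMP, read 428 in knockout RNA and 535 in wild-type RNA by its single probe set. It was 1.25-fold lower (-0.32), 1.40 times its array error of 0.23, and no second probe set was there to repeat the reading. By brightest probe sets, Per1 was the member nearest to Nr1d1 in its difference, and the gap between them, Nr1d1 minus Per1, was -0.61 on the log2 scale. The dimmer probe set of Nr1d2 came nearer, at -0.64.

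Per2 (chr1:91415977-91459351), which light and cAMP also induce, read 205 in knockout RNA and 198 in wild-type RNA by its brightest probe set. The 3 measured probe sets of Per2 differed by 0.05, 0.07 and 0.12, all within array errors of 0.26 to 0.32. With median centring the brightest reached -0.01, so Per2 had no direction beyond the scaling.

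Per3 (chr4:150997018-151044707), a Period gene that the core loop can do without, was the highest of the members by brightest probe sets. Its brightest probe set read 274 in knockout RNA and 201 in wild-type RNA, 1.36-fold higher (0.44, array error 0.26). Of its 6 measured probe sets 3 were higher, by 0.17 to 0.44, and 3 lower, by -0.11 to -0.19. The 2 brightest, at 0.44 and 0.30, passed their array error of 0.26, and the 3 lower ones lay within theirs. The mean of the 6 was 0.08. Among the 6 members with at least 2 measured probe sets, 4 (Nr1d2, Dbp, Hlf and Per3) had probe sets of both signs, against 57.5% of all such genes.

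Of the 2 starts that the promoter table holds for Per1, both inside the gene model, the one at the lower coordinate had a canonical E-box 166 to 161 bases upstream, a CRE half-site at 246 to 242 and a match to AGGTCA on the opposite strand at 137 to 132 (capitals, in the order CRE half-site, E-box, opposite-strand half-site). Its other start had a CRE half-site at 132 to 128. Per3 had 2 D-boxes, at 205 to 198 and 158 to 151 bases before the start (capitals). These are shown because, by brightest probe sets, Per1 and Per3 lay at opposite ends of the members other than Nr1d1.
Per1, chr11:69098699-69098948, plus strand: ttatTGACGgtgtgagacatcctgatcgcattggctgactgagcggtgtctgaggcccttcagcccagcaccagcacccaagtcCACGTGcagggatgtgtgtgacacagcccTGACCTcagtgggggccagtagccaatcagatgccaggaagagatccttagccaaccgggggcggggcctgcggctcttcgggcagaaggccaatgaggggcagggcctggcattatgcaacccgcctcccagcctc
Per3, chr4:151044666-151044915, minus strand: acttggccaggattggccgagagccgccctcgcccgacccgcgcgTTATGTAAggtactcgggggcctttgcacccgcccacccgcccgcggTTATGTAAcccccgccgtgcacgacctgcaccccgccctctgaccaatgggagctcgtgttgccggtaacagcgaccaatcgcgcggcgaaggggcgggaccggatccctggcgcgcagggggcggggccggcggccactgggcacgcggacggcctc

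Bhlhe40 and Bhlhe41 encode DEC1 and DEC2, basic helix-loop-helix repressors that bind E-boxes and oppose CLOCK and BMAL1. Bhlhe40 (chr6:108660629-108666925) read 612 in knockout RNA and 593 in wild-type RNA, a difference of 0.04 with an array error of 0.21, and -0.02 with median centring. Bhlhe41 (chr6:145858243-145865420), which has CACGTG 153 to 148 bases before its start, read 51.3 in knockout RNA and 44.4 in wild-type RNA by 1 probe set and 33.6 against 30.5 by the other, all under the signal limit. Its readings differed by 0.21 and 0.14. The array error of 0.32 for the dimmest range came from measured probe sets only, so it need not hold for these. No difference of Bhlhe41 could be read here.

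**Figure D3:**
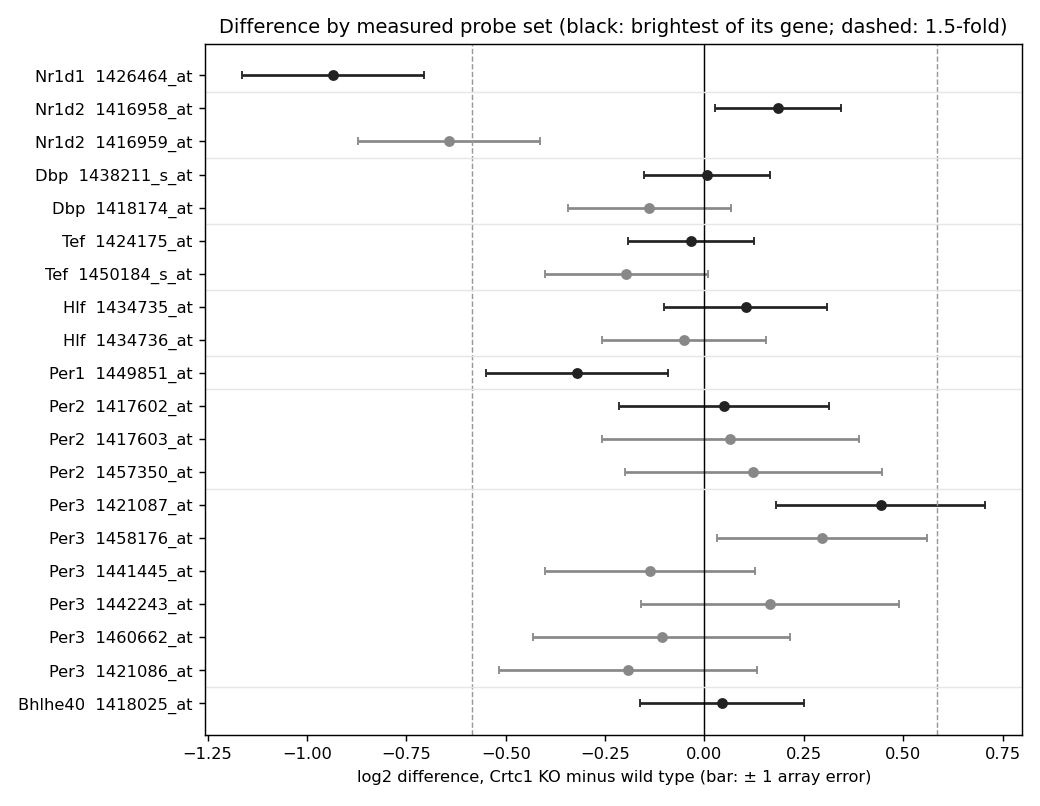
Log2 difference of each of the 20 measured probe sets of the members (knockout minus wild type) with bars of 1 array error on either side, black for the brightest probe set of a gene and grey for the others. In 14 of the 20 the bar reaches zero and in 6 it does not; Nr1d1 and the dimmer probe set of Nr1d2 lie past the dashed line of 1.5-fold on the lower side, and the probe sets of Per3 lie on both sides of zero.

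Members that shared a motif were few. Of the 3 members with the canonical E-box in this window, Per1 differed by -0.32, Tef by -0.03 and Bhlhe41 was not measured. Per3, the member with D-boxes there, differed by 0.44 by its brightest probe set and by 0.08 on average. Hlf, the member with the full CRE, differed by 0.10. Differences of 5 of the 8 measured members other than Nr1d1 were smaller than their array errors, and those of 3 (Per1, Per3 and the brighter probe set of Nr1d2) were larger, against 25.2% of all measured genes. By probe set, 6 of 20 passed their array errors, against 27.4% of all measured probe sets with 1 gene.

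**Figure D4:**
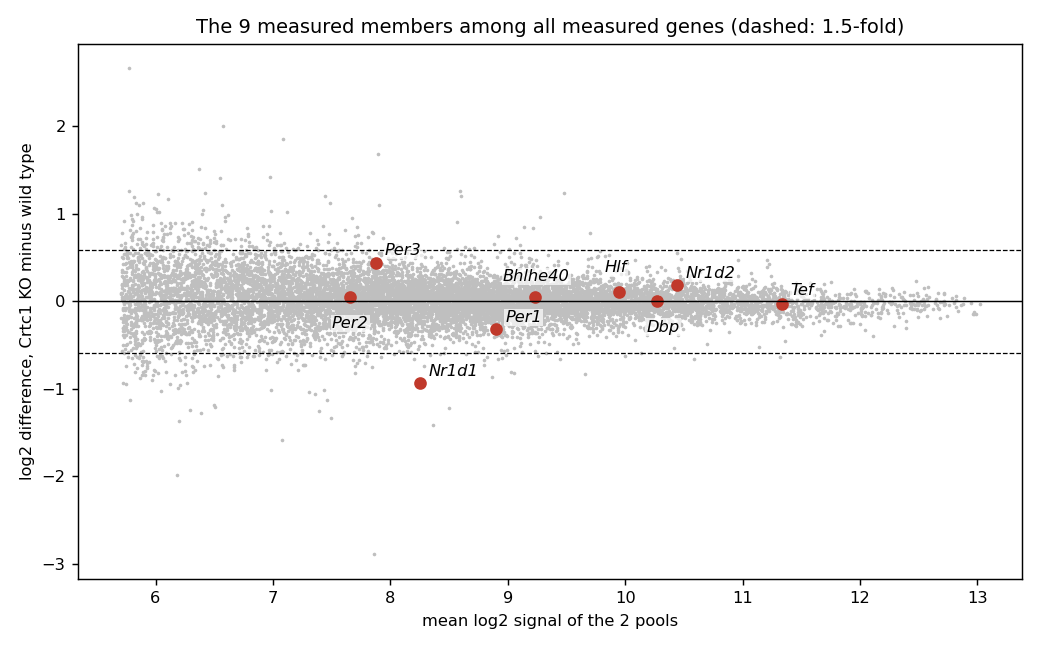
Difference (knockout minus wild type, log2) against mean log2 signal for all 11312 measured genes (grey) and the 9 measured members (red, named), with dashed lines at 1.5-fold. Nr1d1 lies below the lower line at -0.93, Per1 at -0.32 and Per3 at 0.44, and the other members lie between -0.03 and 0.19.

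The core clock genes outside the members were split evenly. The list held 17 genes and 12 of them were measured. In the knockout pool 6 were lower and 6 higher; their median was -0.05, and none lay past 1.5-fold by its brightest probe set. With median centring 8 were lower and 4 higher. Cry1 and Cry2, the partners of the Period proteins in inhibition, differed by 0.45 and -0.25, with array errors of 0.32 and 0.21. Clock differed by -0.16 by its brightest of 3 probe sets, which had both signs, and Arntl by 0.02, a sign that median centring turned. Ciart, which encodes a further inhibitor of CLOCK and BMAL1, differed by -0.21 within its array error of 0.26.

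Npas2, whose protein can replace CLOCK, was lower by both of its probe sets. The brighter read 213 in knockout RNA and 253 in wild-type RNA (-0.25), and the other read 112 against 195, 1.74-fold lower (-0.80, array error 0.26). Rorb, which encodes a receptor that binds the same half-sites as the REV-ERB proteins, was higher by all 3 of its probe sets, by 0.49, 0.40 and 0.30, and its brightest read 422 in knockout RNA and 300 in wild-type RNA. Its relative Rora, which activates Arntl, differed by 0.06 by the brightest of 8 probe sets, 5 of them lower. Nfil3, whose protein competes with DBP, TEF and HLF at D-boxes, read 93.0 against 71.1 (0.39, array error 0.32). The kinase genes Csnk1d and Csnk1e, whose products mark Period proteins for decay, differed by 0.03 and -0.12, and Btrc, a subunit of the ubiquitin ligase that follows, by -0.16. Probe sets of Btrc had both signs, as had those of Csnk1d, where 3 of 5 were lower, by -0.17, -0.25 and -0.30. Of these, -0.25 and -0.30 passed array errors of 0.23 and 0.21. The 2 higher ones differed by 0.03, and the mean of the 5 was -0.13.

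Genes that REV-ERB proteins are known to repress were divided. Of 8 listed, 6 were measured. The lower side held 3 and the higher side 3, their median was -0.07, and with median centring 4 were lower and 2 higher. With probe sets averaged 2 were lower and 4 higher, against 48.5% lower over all measured genes. Cry1 and Nfil3 were on the higher side at 0.45 and 0.39. Npas2 and Clock were on the lower side by their brightest probe sets, at -0.25 and -0.16. Clock had no settled direction, since 2 of its 3 probe sets were higher and the mean of the 3 was 0.09. Fabp7, a fatty acid-binding protein gene of astrocytes, was on the lower side too, at -0.26. By their brightest probe sets, only Nfil3, Cry1 and Fabp7 of these exceeded their array errors. Dimmer probe sets of Npas2 (-0.80) and Clock (0.37) also exceeded theirs, 0.26 each.

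Other outputs of CLOCK and BMAL1 had 11 of 15 genes measured. Of these 4 were lower and 7 higher, none past 1.5-fold, and the median was 0.04. With median centring 7 were lower and 4 higher. Avp, the vasopressin gene, which neurons of the suprachiasmatic nucleus and of other hypothalamic nuclei express, read 1690 in knockout RNA and 1149 in wild-type RNA (0.56, array error 0.16). Klf10, a zinc finger repressor gene, differed by 0.38, Wee1, a kinase gene of the cell cycle, by 0.25, Id2, an inhibitor of helix-loop-helix proteins, by 0.12 and the deubiquitinase gene Usp2 by -0.12.

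Of the genes that cAMP or light is known to induce in the clock, 7 of the 10 measured were lower and 3 higher, against 49.0% lower over all measured genes. The list held 12, and the median was -0.17, against 0.00 over all measured genes. With median centring 8 were lower and 2 higher, and with a filter at the 70th percentile of signal 4 were lower and 3 higher. Rasd1, a Ras-like gene known for its part in the response of the mouse clock to light, read 177 in knockout RNA and 298 in wild-type RNA, 1.69-fold lower (-0.75, array error 0.26). Fos and Nr4a1 differed by -0.38 and -0.34, with array errors of 0.26 and 0.23. Egr3 and Egr1, from the same class of early genes, lay on the other side at 0.60 and 0.29, so the list held differences past the array error in both directions. In all, 1 gene of the list was at least 1.5-fold lower and 1 at least 1.5-fold higher, against 1.44% and 2.06% of all measured genes.

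Glucocorticoids, which follow a daily rhythm and rise with fasting, also induce Per1. All 15 genes of a glucocorticoid list passed the signal limit. Of these 8 were lower and 7 higher, and the median was -0.01. With median centring 13 were lower and 2 higher, against 61.1% lower over all measured genes. Pdk4, a brake on pyruvate oxidation, was 2.06-fold higher (1.04, array error 0.32), and 0.265% of all measured genes were at least 2-fold higher. It rested on 1 dim probe set, with 122 in knockout RNA and 59.0 in wild-type RNA, the latter near the signal limit of 52.3. The lipid droplet gene Plin4 differed by -0.49, the sulfotransferase gene Sult1a1 by -0.29, Fkbp5, a feedback gene of the glucocorticoid receptor, by -0.17 and the metallothionein gene Mt1 by -0.16.

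**Figure D5:**
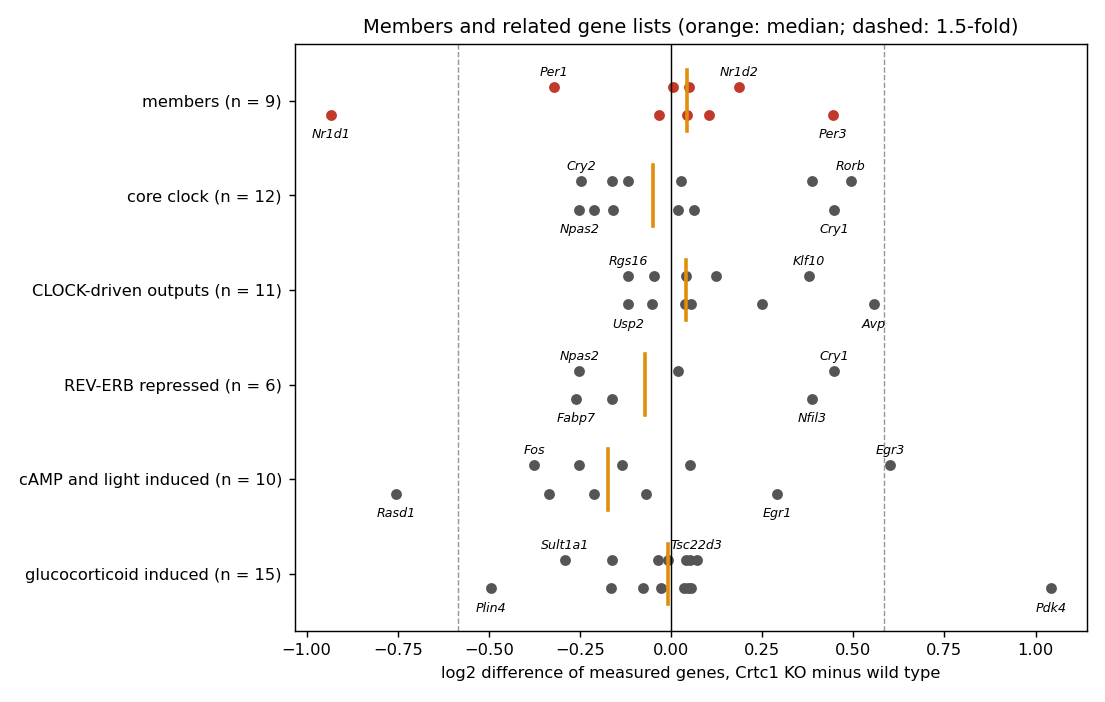
Differences of the measured genes (knockout minus wild type, log2) of the members (red) and of 5 related lists (grey), 1 point per gene, with the median in orange, dashed lines at 1.5-fold and up to 4 outermost genes of each row named. Medians run between -0.17 for the genes induced by cAMP or light and 0.04 for the members and the other outputs, and Nr1d1 is the lowest point of all rows.

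Markers of the suprachiasmatic nucleus were divided as well. Of 10 listed, 6 were measured. Of these 4 were lower and 2 (Avp and Rorb) higher, and the median was -0.21. Their summed signal was 2894 in knockout RNA and 2384 in wild-type RNA. Avp, the brightest of them, read 1690 in knockout RNA and 1149 in wild-type RNA and carried that gap. Vipr2, the receptor for the clock peptide VIP, read 38.7 in knockout RNA and 74.4 in wild-type RNA (-0.94, array error 0.32, 1 dim probe set). The knockout reading was under the signal limit of 52.3, so Vipr2 counted as measured only through its wild-type reading. Vip itself read 312 against 384 (-0.30, array error 0.23), Syt10 differed by -0.34. Rgs16 differed by -0.12 by its brightest probe set, within its array error of 0.23, and by 0.13 as the mean of 3 probe sets, 2 of them higher. The part of these cells, or of choroid plexus and endothelial markers, in the difference of Nr1d1 was not tested. In tissue RNA, fewer cells of a type and less RNA per cell cannot be told apart.

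The genes whose difference came nearest to that of Nr1d1, among the 2211 genes whose 2 or more measured probe sets had one sign, were Gas1 at -1.02, Cntfr at -0.81, Top3b at -0.66, D2hgdh at -0.65 and Map3k10 at -0.63. These values are of brightest probe sets. Averaged over all their measured probe sets, the same genes differed less, by -0.63, -0.54, -0.60, -0.56 and -0.29 in that order. None of them is on the clock lists used here, but the ranking left out genes with 1 measured probe set, as Nr1d1 itself has. Among the genes left out, Vipr2 and Rasd1 of the lists above differed by -0.94 and -0.75. The knockout reading of Vipr2 was under the signal limit. Any such likeness to Nr1d1 rests on 1 difference between 2 arrays.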

How the data were processed

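The deposited values were linear probe-set signal intensities, 1 per probe set and array. The summarising algorithm is not given in these sources. On both arrays the deposited intensities had a trimmed mean of 200.0 (2% of probe sets dropped at each end), as scaling by 1 factor per array gives. Per the labels' protocols, 30 ug of total RNA went into each biotinylated cRNA.

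Of 45101 probe sets, 64 controls were left out. The platform annotation paired 34945 of the others with 1 gene, 932 with several and 9160 with none. Symbols were updated by Entrez ID through RefSeq, in which 34741 were found. Arrays were floored at their 30th percentile (20.5 in the knockout pool, 20.2 in the wild-type pool) and put on the log2 scale. The deposited scaling was kept because array medians differed by 0.06 on the log2 scale, under a limit of 0.1. Measured were 22519 probe sets and 11312 genes.

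The members and lists were chosen with earlier results of these data known. The text names all members, the measured core clock genes, up to 5 genes of each related list with the largest difference and the 5 genes nearest to Nr1d1, plus Thra and suprachiasmatic markers. Alternatives were 3 scalings, 3 treatments of low signals, 2 filters, averaging of probe sets, and leaving out probe sets ending in _s_at, _x_at or _a_at. The error estimate was tested on simulated data that gave each probe set independent error. Error shared by the probe sets of a gene was not simulated. Python 3.11.15, pandas 2.3.3 and statsmodels 0.14.6 were used. The number of arrays limits the precision.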

Additional observations from a re-analysis of the deposited data

How the results depend on the processing

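Nr1d1 and Per1 each rest on 1 bright probe set, so 6 of the 10 alternatives could not alter them; in the other 4 Nr1d1 differed by -0.89 to -0.99 and Per1 by -0.30 to -0.38. With probe sets averaged, Nr1d2 turned to -0.23, Per3 was 0.078, 5 member genes were lower and the member median was -0.066. With median centring, 6 members were lower and 3 higher, 7 other CLOCK-driven outputs were lower and 4 higher, and 13 glucocorticoid-induced genes were lower and 2 higher; a shift of the same size for every gene turned differences near zero. Without probe sets ending in _s_at, _x_at or _a_at, 4 outputs, 1 REV-ERB repressed gene and 3 core clock genes were higher. With the 70th percentile filter, 1 REV-ERB repressed gene was higher and 4 genes induced by cAMP or light were lower and 3 higher, and with no filter 5 of that list were higher; these alternatives measure fewer or more genes. The share of all genes past 1.5-fold was 2.07% with the pseudocount of 16, 7.15% with no filter and 1.17% with the 70th percentile filter, and past 2-fold it was 0.248%, 1.32% and 0.175%. No paired analysis was possible because each genotype has 1 pooled array. No pool can be left out.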
